A study of Mus musculus with 20 samples.

Results

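The cytosolic ribosomal protein genes are described here in the livers of 20 mice whose Ppara mRNA was targeted with siRNA or not. They were taken as every array probe whose only gene symbol is Rpl or Rps followed by a number and at most 1 letter and 1 further digit, or is Rplp0, Rplp1, Rplp2 or Rpsa, without symbols that mark a pseudogene by -ps and without the Rps6k kinases. The rule uses names and no measured value. It found 69 probes of 63 genes among 15252 named genes on the array, 41 for the large and 22 for the small ribosomal subunit, with 57 genes on 1 probe each. The same rule takes 84 protein-coding genes of the RefSeq mouse annotation, and 22 of these, among them Rpsa, Rps14 and Rps27a, were not analysed here.

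All mice were injected through the tail vein by the hydrodynamic method, a rapid large-volume injection that drives nucleic acid into liver cells, and livers were taken at 48 h. A group of 4 received Ringer's vehicle control alone, and groups of 4 received 40 µg of siRNA. PPARa siRNA and PPARa-M siRNA target different stretches of the mRNA of Ppara, the nuclear receptor that switches on fatty acid oxidation genes in hepatocytes. SEAP-M control siRNA and GL3 control siRNA target reporter genes that mice lack. The sources used here give neither the strain, sex and age of the mice nor the meaning of the suffix M. RNA of each liver was hybridized on a 2-colour oligonucleotide array together with pooled RNA of 4 vehicle mice, and every level below is the log2 ratio of a mouse to that pool, so that 0 is the level of the pool. That the ratio runs from mouse over pool is likely and not certain, since the labels name the arrays in the order pool and mouse without tying the dyes to them, and the reading rests on the study's account of Ppara as the silenced gene. Whether the vehicle mice of the first group were those in the pool is not stated. Ppara itself had ratios of -1.05 to -0.59 with PPARa-M siRNA, -0.42 to 0.09 with PPARa siRNA, and -0.16 to 0.80 in all other mice. It fell by 0.89 on the log2 scale (SE 0.17) with PPARa-M siRNA against SEAP-M control siRNA (limma, adjusted p = 0.0103), whereas PPARa siRNA against GL3 control siRNA gave -0.34 (limma, adjusted p = 1.00). A 2-colour ratio carries no level of a gene against another gene, so the liver identity of the tissue could not be read from hepatocyte markers. Precision is limited by the number of arrays, 4 in a group.

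Ribosomal proteins are made in equal numbers with ribosomal RNA and assembled in the nucleolus into a small subunit, which reads the mRNA, and a large subunit, which joins the amino acids. In liver their mRNAs are among the most abundant, and hepatocytes use them to make plasma proteins. Many of these mRNAs begin with a run of pyrimidines behind a C, the 5′ terminal oligopyrimidine tract, through which mTOR signalling and the Larp1 protein set their translation together, so mRNA level and protein output need not move together. Some members also act outside the ribosome. Rpl5 and Rpl11 bind Mdm2 when ribosome assembly fails and so stabilize p53, and Rpl13a leaves the ribosome in interferon-gamma-treated monocytes to silence inflammatory mRNAs.

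The first bases of 5 members named for their values or roles in the following paragraphs are shown, because the tract is the feature of sequence that these mRNAs are best known to share. Each line holds 30 bases of RefSeq sequence (build GRCm38.p6), 15 before the annotated start of transcription and 15 from it on, and capitals mark a C followed by at least 4 bases that are each C or T, where such a run began within 5 bases of the start.
Rps10 (chr17:27635230-27635259, minus strand): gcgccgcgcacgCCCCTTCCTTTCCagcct
Rpl15 (chr14:18270972-18271001, minus strand): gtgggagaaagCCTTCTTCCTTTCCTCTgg
Rps6 (chr4:86857353-86857382, minus strand): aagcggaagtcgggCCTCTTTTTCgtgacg
Rpl11 (chr4:136053379-136053408, minus strand): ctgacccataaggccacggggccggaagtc
Rps25 (chr9:44407699-44407728, plus strand): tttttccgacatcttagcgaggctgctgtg
Of the 63 members, 51 matched the promoter table by symbol, and 23 of them, or 45.1%, had such a run at 1 or more annotated starts on the transcribed strand. Such a run was present in 21.2% of all genes there, 5718 of 27025. Among the members shown, the run was 13 bases long in Rps10, 17 in Rpl15 and 10 in Rps6. The windows of Rpl11 and Rps25 held none near the annotated start, which says only that those letters are not in this place. Rps20 and Rpl32, also named below, were not in the table.

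A property of the deposited ratios touches several members and is given before the results. In 8 of the 20 arrays, many probes held 1 and the same log10 ratio to 4 decimals. The 8 were those of all 4 vehicle mice, of PPARa-M siRNA replicates A, B and C and of PPARa siRNA replicate B. The repeated value stood in 32 to 116 probes of an array, where neighbouring values within 0.003 were held by 1.38 to 5.62 probes on average. It was a log2 ratio of -0.44 to -0.24 in 7 of these arrays and 0.27 in PPARa-M siRNA replicate B. Among the genes that held it in 6 to 8 of these arrays were Adh1, Hp, Cdo1, Arg1 and Car3, known for abundant liver mRNAs, and also Sdhb, Ctsl and Cebpb. How abundant the mRNAs at this value were was not measured.

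Within 0.0001 of the repeated log10 ratio stood 11 of the 63 members in at least 1 array, or 17.5%, against 182 of all 15252 genes, or 1.19%. Rps18, by 1 of its 2 probes, held it in all 8 arrays and Rps4x, the X-linked small-subunit protein, in 7. Rpl29 and Rpl35a held it in 4 arrays each, Rplp1 in 3 and Rps29 in 2, whereas Rpl13a, Rpl39, Rpl6, Rps2 and Rps23 held it in 1 each. These 11 members lay below the pool in a median of 17 of 20 mice, against 11 of 20 for the other 52 members and 10 of 20 for all genes. The 11 were chosen by this ratio, which lay below 0 in most arrays that had one, so their low values follow in part from the choice. The files hold no signal intensities, and whether these spots were near the upper limit of the scanner was not tested. Median differences of the 11 members between groups with and without such arrays are therefore also given apart from those of the other 52.

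**Figure D1:**
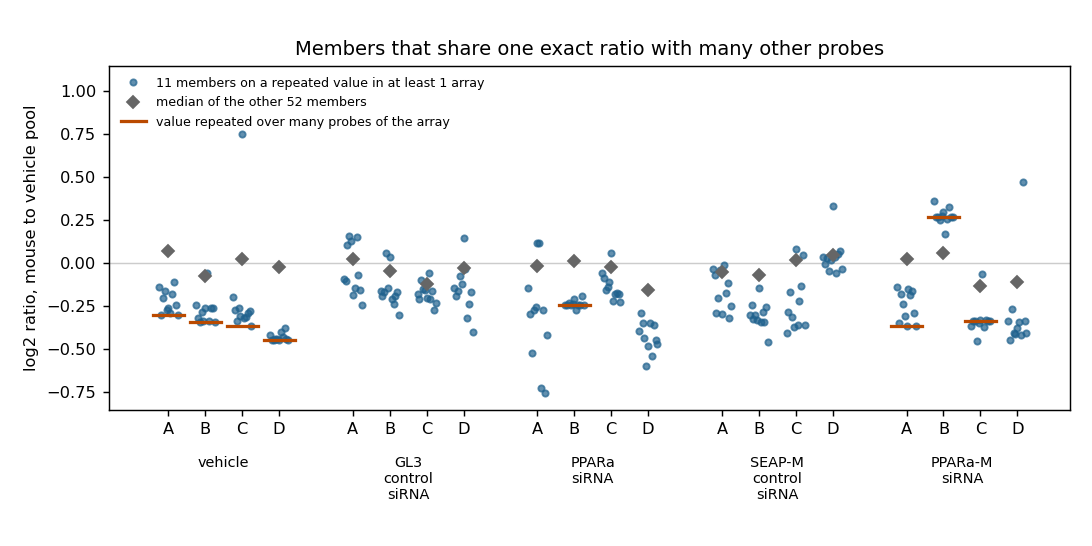
Log2 ratio of mouse to vehicle pool (vertical axis) in each of the 20 mice (horizontal axis, replicates A to D of each group) for the 11 members that share a repeated ratio (blue points), with the median of the other 52 members (grey diamonds) and the repeated ratio of the 8 arrays that had one (orange lines). In vehicle replicate D and PPARa-M siRNA replicate C 6 of the 11 points lie on the line, and in PPARa-M siRNA replicate B 5 do.

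As a whole, the ribosomal protein genes stayed near the level of the pool in all groups, and no group stood apart. The mean over the 63 members (± SD over 4 mice) was -0.045 ± 0.070 in vehicle mice, -0.061 ± 0.060 after GL3 control siRNA, -0.099 ± 0.070 after PPARa siRNA, -0.047 ± 0.055 after SEAP-M control siRNA and -0.042 ± 0.144 after PPARa-M siRNA. The ranges of all 5 groups overlapped.

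Single mice of 1 group differed more than the group means did. A mean over 4 mice varies less than single mice do, so this says nothing about the groups. In the order of replicates A to D the means were 0.034, -0.094, -0.007 and -0.112 with vehicle, 0.017, -0.080, -0.127 and -0.054 with GL3 control siRNA, and -0.077, -0.040, -0.078 and -0.200 with PPARa siRNA. They were -0.069, -0.105, -0.040 and 0.025 with SEAP-M control siRNA and -0.014, 0.144, -0.193 and -0.107 with PPARa-M siRNA. The highest mean of the 20 was thus that of PPARa-M siRNA replicate B, which also had the widest spread of ratios over all probes (interquartile range 0.1245 on the log10 scale, against 0.0442 to 0.089 in the other 19 arrays). The lowest was that of PPARa siRNA replicate D, where the mean over 8 neutrophil markers stood at 2.94 on the log2 scale, against -0.61 to 0.77 in the other 19 mice. In whole liver, fewer cells of a type and less RNA per cell cannot be told apart, and the part of these cells in the ribosomal protein level was not tested. Without the 11 members of the repeated ratio the group means were 0.005 ± 0.068 with vehicle, -0.046 ± 0.061 with GL3 control siRNA, -0.061 ± 0.066 with PPARa siRNA, -0.023 ± 0.040 with SEAP-M control siRNA and -0.020 ± 0.123 with PPARa-M siRNA (SD, n = 4 each).

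**Figure D2:**
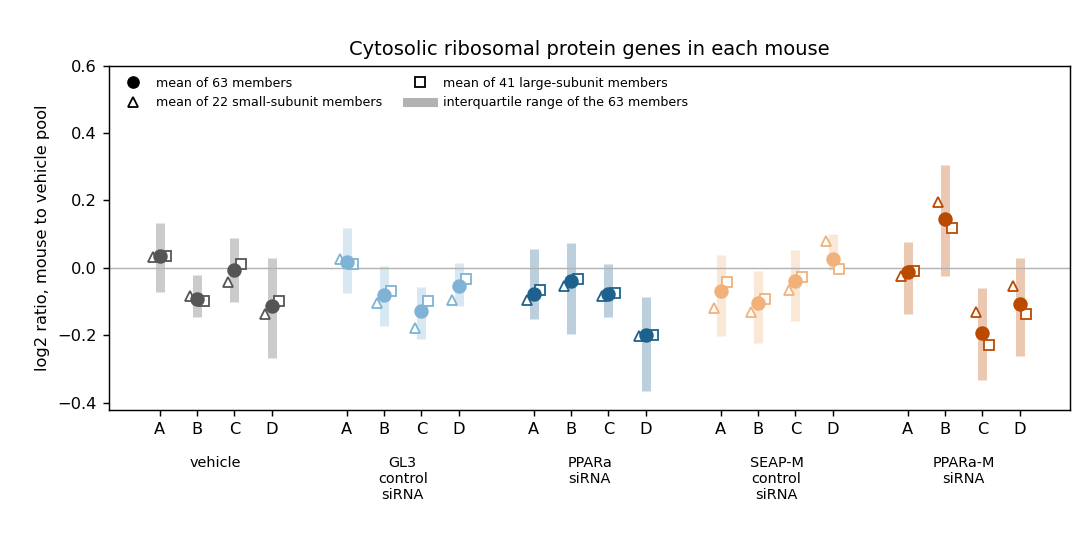
Log2 ratio of mouse to vehicle pool (vertical axis) in each mouse (horizontal axis, replicates A to D of each group): mean over all 63 members (filled circles), over the 22 small-subunit members (triangles) and over the 41 large-subunit members (squares), with the interquartile range of the 63 members (bars). The means over all members lie between -0.200 and 0.144, and the ranges of the groups overlap. Small- and large-subunit means lie farthest apart in PPARa-M siRNA replicate C, at -0.130 and -0.228.

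The subunits moved together from mouse to mouse. Over the 20 mice the small-subunit mean and the large-subunit mean had a Pearson r of 0.81 and a Spearman rho of 0.81, and r was 0.66 without the mice farthest from the median, which were replicate B of PPARa-M siRNA and replicate D of PPARa siRNA. Both means come from the same arrays and share whatever moves an array as a whole. In replicates B, C and D of PPARa-M siRNA the small-subunit means of 0.194, -0.130 and -0.053 lay above the large-subunit means of 0.117, -0.228 and -0.136. The same order stood in SEAP-M control siRNA replicate D (0.079 and -0.004), vehicle replicate B and GL3 control siRNA replicate A. In all other mice the small-subunit mean was the lower.

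Few members passed the test in any comparison. With PPARa-M siRNA against SEAP-M control siRNA, 2 of 63 members passed, both higher, beside 2.54% of all 15252 genes (limma, Benjamini-Hochberg adjusted p under 0.05 over all genes), and the median difference of the members was -0.018, against -0.014 over all genes. With PPARa siRNA against GL3 control siRNA, 0 of 63 passed by limma, beside 0.0525% of all genes. The median was -0.027, against 0.007 over all genes. At an unadjusted limma p under 0.05 stood 3 of 63 members, beside 755 of all 15252 genes. When both Ppara siRNAs were set against both control siRNAs, again 0 of 63 passed by limma, beside 0.216% of all genes. The median was -0.024. There 4 of 63 members had an unadjusted limma p under 0.05, beside 1730 of all 15252 genes.

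The comparisons with vehicle share the vehicle mice. PPARa-M siRNA against vehicle had 2 of 63 members past the test, Rpl11 higher and Rpl15 lower, beside 7.28% of all genes, and a median of -0.029, against -0.018 over all genes. By limma 0 of 63 passed with PPARa siRNA, GL3 control siRNA or SEAP-M control siRNA against vehicle, beside 0.0787%, 0.0131% and 0.00656% of all genes. At an unadjusted limma p under 0.05 were 4, 4 and 3 of 63 members, beside 847, 423 and 892 of all 15252 genes. The medians of the members were -0.025, -0.025 and 0.016. For SEAP-M control siRNA against GL3 control siRNA 0 of 63 passed by limma, beside 0.0% of all genes. At an unadjusted limma p under 0.05 were 4 of 63, beside 1693 of all 15252 genes. The 4 mice of these groups did not overlap in several members, among them Rps20, Rpl22, Rps15, Rps13 and Rps12. How many of all genes showed the same was not counted. Set against each other, the Ppara siRNAs differed in 4 of 63 members, beside 9.02% of all genes, all 4 higher with PPARa-M siRNA. The median was 0.054, against -0.033 over all genes. It was 0.103 in the 11 members of the repeated ratio and 0.018 in the other 52, and without PPARa-M siRNA replicate B it was -0.042. The F test over the 5 groups took 2 members, Rpl11 and Rps10, beside 5.76% of all genes.

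Among the 11 members of the repeated ratio, all 11 had a positive difference for GL3 and for SEAP-M control siRNA against vehicle, with medians of 0.154 and 0.125, and none passed the test. The other 52 members had medians of -0.039 and -0.007 there. With PPARa siRNA against GL3 control siRNA 0 of the 11 had a positive difference, with a median of -0.095, against -0.018 in the other 52. With PPARa-M siRNA against SEAP-M control siRNA the medians were 0.006 and -0.036, and against vehicle 0.136 and -0.041. None of the 11 passed in these comparisons. All 4 vehicle arrays had a repeated ratio below 0 and none of the 8 control siRNA arrays had one, so that the group and this property of the arrays cannot be told apart for those 11 genes. The 11 were also chosen by that ratio, so their positive differences against vehicle follow in part from the choice.

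**Figure D3:**
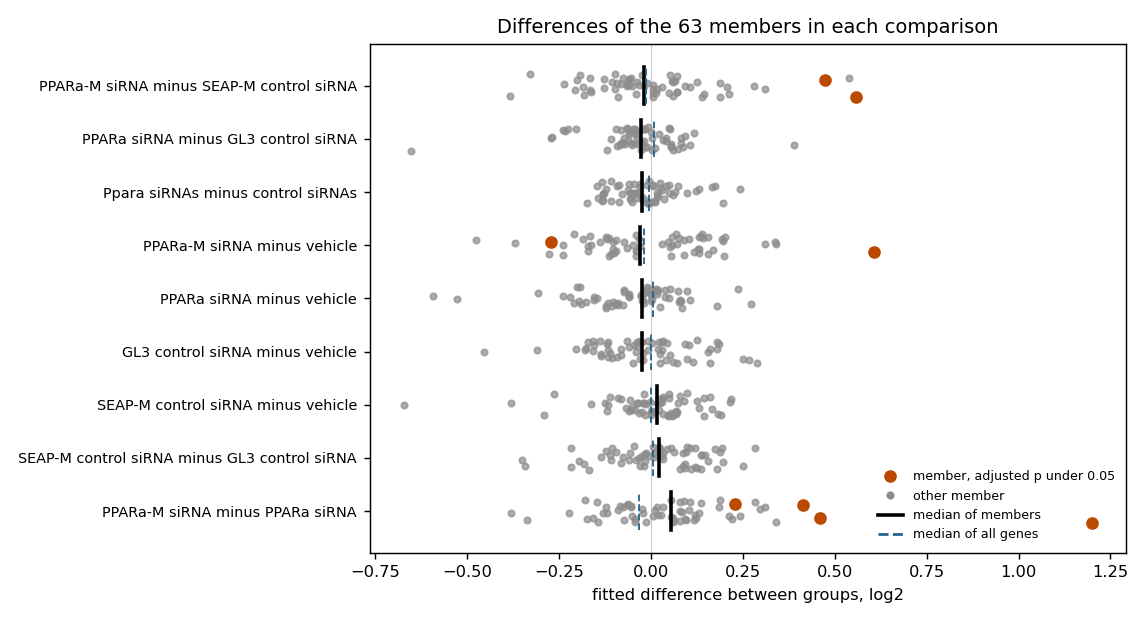
Fitted difference between groups on the log2 scale (horizontal axis) of each of the 63 members (points, spread vertically at random for sight) in 9 comparisons, with the median of the members (black bar) and of all genes (dashed blue bar). Members past an adjusted p of 0.05 are orange: 2 with PPARa-M siRNA against SEAP-M control siRNA, 2 with PPARa-M siRNA against vehicle, 4 with PPARa-M siRNA against PPARa siRNA, and none elsewhere.

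Rpl11, the large-subunit protein that docks the smallest ribosomal RNA together with Rpl5, moved in opposite directions with the Ppara siRNAs. Its ratios were 0.33, 0.77, 0.38 and 0.78 with PPARa-M siRNA (replicates A to D), and -0.76, -0.50, -0.83 and -0.46 with PPARa siRNA. They were -0.10, -0.01, 0.37 and -0.42 with vehicle, -0.13, 0.16, 0.11 and -0.07 with GL3 control siRNA, and 0.05, 0.18, -0.32 and 0.19 with SEAP-M control siRNA. All 4 PPARa siRNA mice lay below the other 16, and the PPARa-M siRNA mice lay above all others but vehicle replicate C, which fell among them.

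Rpl11 was 2.30-fold higher with PPARa-M siRNA than with PPARa siRNA, a log2 difference of 1.20 (SE 0.16, limma adjusted p = 0.000216), and this call held in all alternatives run, with adjusted p of 0.000161 to 0.00814. Against their own controls the differences were 0.54 (SE 0.16, limma adjusted p = 0.0696) for PPARa-M siRNA and -0.65 (SE 0.16, limma adjusted p = 0.361) for PPARa siRNA. The difference between these effects, tested itself, was 1.19 (SE 0.22, limma adjusted p = 0.0188), and Rpl11 was the 1 member past that test, beside 0.879% of all genes. That call was lost with quantile normalization between arrays (1.06, limma adjusted p = 0.131) and with arrays scaled to 1 interquartile range (1.10, limma adjusted p = 0.137). Against vehicle, PPARa-M siRNA raised Rpl11 by 0.61 (SE 0.16, limma adjusted p = 0.0275). Without vehicle replicate A or D, or without PPARa-M siRNA replicate B or D, that difference was 0.48 to 0.59 and its limma adjusted p 0.0614 to 0.118.

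Rps10, a protein of the small-subunit head that is ubiquitinated when ribosomes stall, was high in vehicle and PPARa-M siRNA mice and low in the other groups. The ratios of replicates A to D were 0.53, 0.45, 0.33 and 0.24 with vehicle and 0.03, 0.47, 0.28 and 0.31 with PPARa-M siRNA. They were -0.02, -0.09, -0.07 and -0.38 with PPARa siRNA, -0.39, -0.58, -0.25 and 0.08 with SEAP-M control siRNA, and 0.08, -0.05, -0.16 and -0.13 with GL3 control siRNA. The vehicle mice lay above all 12 mice of those last groups, and above the vehicle pool.

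Rps10 was higher after PPARa-M siRNA than after SEAP-M control siRNA by 0.56 (SE 0.12, limma adjusted p = 0.0238), or 1.47-fold. Without PPARa-M siRNA replicate B, C or D, or without SEAP-M control siRNA replicate A, B or C, the difference was 0.46 to 0.57 and the limma adjusted p 0.0549 to 0.0735. The siRNA groups that lay low against vehicle did not pass, with -0.67 (SE 0.12, limma adjusted p = 0.133) for SEAP-M control siRNA, -0.53 (SE 0.12, limma adjusted p = 0.204) for PPARa siRNA and -0.45 (SE 0.12, limma adjusted p = 1.00) for GL3 control siRNA. The first of these passed without SEAP-M control siRNA replicate D (-0.79, limma adjusted p = 0.0284). Over the 5 groups together Rps10 passed the F test (limma, adjusted p = 0.00985), as did Rpl11 (limma, adjusted p = 0.00343). Rps10 was also higher with PPARa-M siRNA than with PPARa siRNA, by 0.41 (SE 0.12, limma adjusted p = 0.0431), and leaving out any 1 of these 8 mice other than PPARa-M siRNA replicate A gave 0.33 to 0.45 and a limma adjusted p of 0.0529 to 0.122. That call was also lost with a replicate block (limma adjusted p = 0.0676) and with array quality weights (0.36, limma adjusted p = 0.0631).

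Rps20, which like Rps10 lies in the small-subunit head, was the other member that passed when PPARa-M siRNA was set against SEAP-M control siRNA. Its ratios were 0.12, 0.07, 0.55 and 0.47 with PPARa-M siRNA (replicates A to D) and -0.26, -0.18, -0.11 and -0.14 with SEAP-M control siRNA. These groups did not overlap, as in 7 of the 63 members, and the count over all genes was not taken. The ratios were 0.24, 0.07, 0.18 and 0.20 with GL3 control siRNA, 0.15, -0.22, 0.08 and 0.35 with PPARa siRNA and 0.03, 0.06, -0.22 and 0.09 with vehicle, so that all GL3 control siRNA mice lay above all SEAP-M control siRNA mice and overlapped the PPARa-M siRNA mice. SEAP-M control siRNA lay at -0.34 (SE 0.12, limma adjusted p = 0.282) against GL3 control siRNA. The PPARa-M siRNA mice C and D, where Rps20 was highest, were those in which the mean over 26 interferon-stimulated genes stood at 1.45 and 1.43, against -0.22 to 0.25 in the other 18 mice. The part of that response in the Rps20 level was not tested. Rps20 differed by 0.47 (SE 0.12, limma adjusted p = 0.0370). When 1 of PPARa-M siRNA replicates C and D or 1 of the 4 SEAP-M control siRNA replicates was left out, the difference was 0.39 to 0.50 and the limma adjusted p 0.0506 to 0.105.

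Rpl15, a core protein of the large subunit that is mutated in some patients with Diamond-Blackfan anaemia, was lowest in all 4 PPARa-M siRNA mice. Its ratios there were -0.30, -0.23, -0.23 and -0.27, against 0.08, -0.14, 0.05 and 0.08 with vehicle, and the lowest ratio outside that group was -0.15. It fell by 0.27 (SE 0.07, limma adjusted p = 0.0204) against vehicle, and against SEAP-M control siRNA the difference was -0.24 (SE 0.07, limma adjusted p = 0.0604). Without vehicle replicate A or D the fall against vehicle was -0.25 (limma adjusted p = 0.0600 and 0.0840). After Rpl15 and Rpl11, the member with the smallest p against vehicle was Rpl5, the partner of Rpl11, at -0.37 (SE 0.11, limma adjusted p = 0.0506), with ratios of -0.54 to -0.13 in PPARa-M siRNA mice and -0.15 to 0.30 in vehicle mice. Without vehicle replicate B or PPARa-M siRNA replicate C, and with the replicate letter in the model, Rpl5 passed (limma adjusted p = 0.0292, 0.0429 and 0.0239).

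Rps25, which some viral mRNAs need to start translation, and Rpl32, a large-subunit protein much used as a reference mRNA, were higher with PPARa-M siRNA than with PPARa siRNA. Rps25 ratios were 0.27, 0.58, 0.16 and 0.25 against -0.26, 0.06, -0.24 and -0.14, a log2 difference of 0.46 (SE 0.11, limma adjusted p = 0.0124). Rpl32 ratios were 0.07, 0.30, 0.22 and 0.16 against 0.00, -0.01, -0.02 and -0.13, a difference of 0.23 (SE 0.06, limma adjusted p = 0.0281). For neither gene did the groups overlap, as for 6 of the 63 members in this comparison. How many of all genes showed no overlap here was not counted. The Rpl32 call was lost without PPARa-M siRNA replicate B or C or PPARa siRNA replicate C or D (0.19 to 0.23, limma adjusted p 0.0528 to 0.0819). Rpl22, an RNA-binding protein of the large subunit, lay at -0.38 (SE 0.11, limma adjusted p = 0.0691) with PPARa-M siRNA against SEAP-M control siRNA and passed without PPARa-M siRNA replicate A (-0.47, limma adjusted p = 0.0310).

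Of the members past the test in a comparison of groups or in the difference of effects, each call other than that of Rpl11 between the Ppara siRNAs was lost both with quantile normalization and with arrays scaled to 1 interquartile range. The interquartile range over all probes was 0.0735 to 0.1245 on the log10 scale in the PPARa-M siRNA arrays and 0.0442 to 0.0852 in the others.

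**Figure D4:**
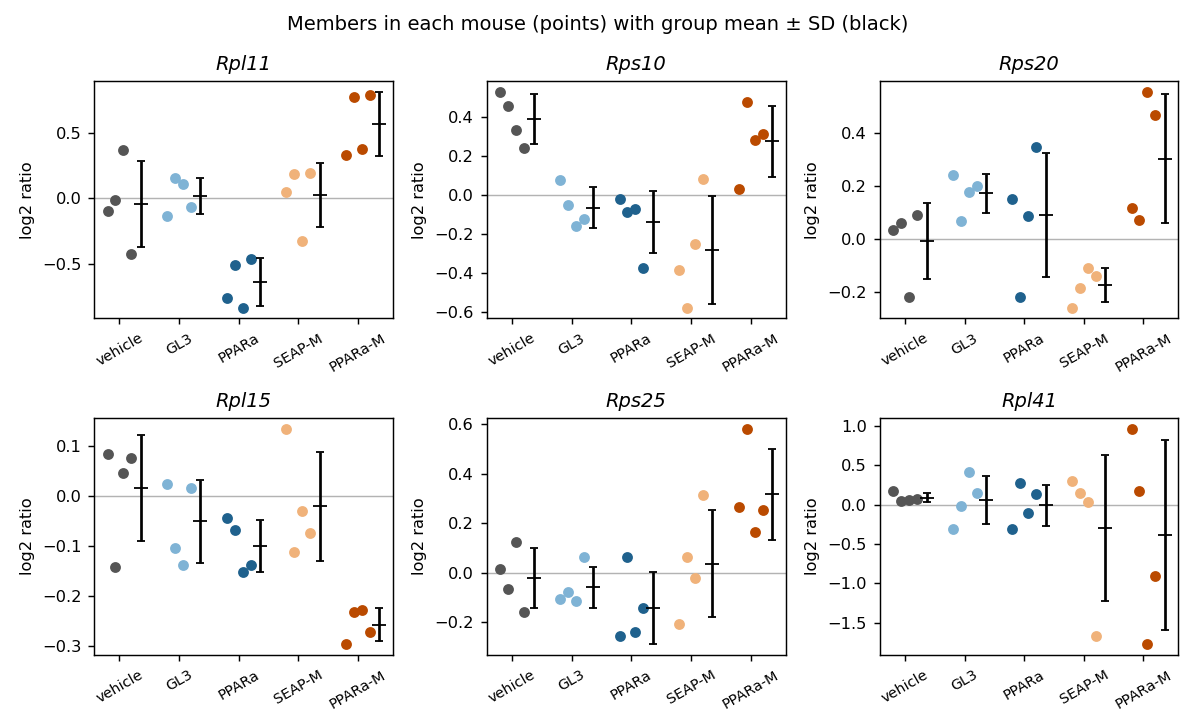
Log2 ratio of mouse to vehicle pool (vertical axes, scales differ) of 6 members in the 5 groups of 4 mice (horizontal axes), with group mean ± SD in black. Rpl11 is highest with PPARa-M siRNA and lowest with PPARa siRNA, Rps10 is high in vehicle and PPARa-M siRNA mice, Rpl15 is lowest in the PPARa-M siRNA mice, and Rpl41 falls below -0.9 in 3 mice of 2 groups.

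Rpl41, the shortest ribosomal protein, a peptide at the bridge between the subunits, varied most, with an SD of 0.66 over the 20 mice against a median of 0.17 for the members and 0.16 for all genes. It stood at -1.78 in replicate C and at -0.91 in replicate D of PPARa-M siRNA, the mice high in interferon-stimulated genes, and at -1.68 in SEAP-M control siRNA replicate D, where the mean of those genes was 0.00, but at 0.97 and 0.17 in PPARa-M siRNA replicates A and B. Vehicle mice lay between 0.05 and 0.17, and all other mice between -0.32 and 0.42. No comparison of Rpl41 passed, the F test included (limma, adjusted p = 0.881). The next widest spreads were those of Rpl11 (SD 0.44), Rplp1 (SD 0.31) and Rps10 (SD 0.31). The steadiest were Rpl4 (SD 0.05), Rpl23a (SD 0.07), Rps3a1 (SD 0.07) and Rpl14 (SD 0.08). Rpl4 and Rpl23a lie at the exit tunnel of the large subunit, and Rpl4 ranged from -0.12 to 0.08 over all 20 mice.

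The acidic stalk of the large subunit, which recruits elongation factors, did not move as a unit. Its base Rplp0 stayed between -0.19 and 0.13 in all mice. Rplp1 ranged from -0.48 to 0.75, with its highest ratio in vehicle replicate C and the other vehicle mice at -0.26, -0.26 and -0.44, and it held the repeated ratio in 3 arrays. Rplp2 ranged from -0.53 to 0.50, both ends within SEAP-M control siRNA. None of the 3 passed a test in any comparison.

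Other members with known roles showed small group differences that did not pass. Rps6, the substrate of the S6 kinases, ranged from -0.16 to 0.52 and was highest in PPARa siRNA replicate D and PPARa-M siRNA replicate D, at 0.52 and 0.50. Rps3, which lies where the mRNA enters, had group means of -0.11 to 0.02, and Rps19, the gene most often mutated in Diamond-Blackfan anaemia, of -0.15 to 0.05. Rpl10, which joins the large subunit last, had group means of -0.06 to 0.07 and Rpl13a of -0.25 to -0.12. Rpl3, a protein near the catalytic centre, was 0.15 ± 0.06 in vehicle mice and -0.14 ± 0.15 after SEAP-M control siRNA (SD, n = 4 each), without passing (limma, adjusted p = 0.785).

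Among the members were 6 paralogs of other ribosomal protein genes. Rpl22l1, which can replace Rpl22, ranged over 1.04 log2 units from mouse to mouse, with -0.62 as its lowest ratio, and its 2 probes had an r of 0.84 over the mice. Rpl3l, known from skeletal muscle and heart, had group means of -0.37 to -0.13, where Rpl3 had -0.14 to 0.15. Rpl39l, known from testis, had group means of -0.09 to 0.11, where Rpl39 had -0.29 to 0.00. Rpl7l1 had group means of -0.16 to 0.15 beside -0.15 to 0.00 for Rpl7, and Rps27l, a p53 target, of -0.11 to -0.01 beside -0.26 to -0.05 for Rps27. Rps4l, which RefSeq lists as a transcribed pseudogene, had ratios of 0.01 to 0.53 with PPARa siRNA and -0.31 to 0.03 with GL3 control siRNA, a difference of 0.39 (SE 0.15, limma adjusted p = 0.894). None of the paralogs passed a test. Probes of close paralogs, and of the many processed pseudogenes of this family, may share targets, and the probe sequences were not used here.

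Many members, though far from all of them, varied together from mouse to mouse. The median r between 2 members over the 20 mice was 0.23 over 1953 pairs, and 0.32 after the group means had been taken out. With the mean of the other members, 32 of 63 had an r over 0.5, or 50.8%, against 7.8% of 15189 other genes with the mean of all members. The highest were Rpl38 (0.89), Rps21 (0.88) and Rpl22l1 (0.81), and 8 members had an r below 0, the lowest being Rps6 (-0.52), Rps20 (-0.47) and Rpl5 (-0.41). These are descriptions over mice that share their arrays' technical features. The 11 members of the repeated ratio had a median r of 0.63 with each other, and the other 52 had 0.21. As the 11 were chosen for holding a value that they share within arrays, a higher r follows in part from the choice. Genes with 2 probes did not always agree, with an r between probes of 0.99 for Rps24, 0.61 for Rpl10a, 0.40 for Rps18, 0.22 for Rpl12 and -0.07 for Rpl37.

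**Figure D5:**
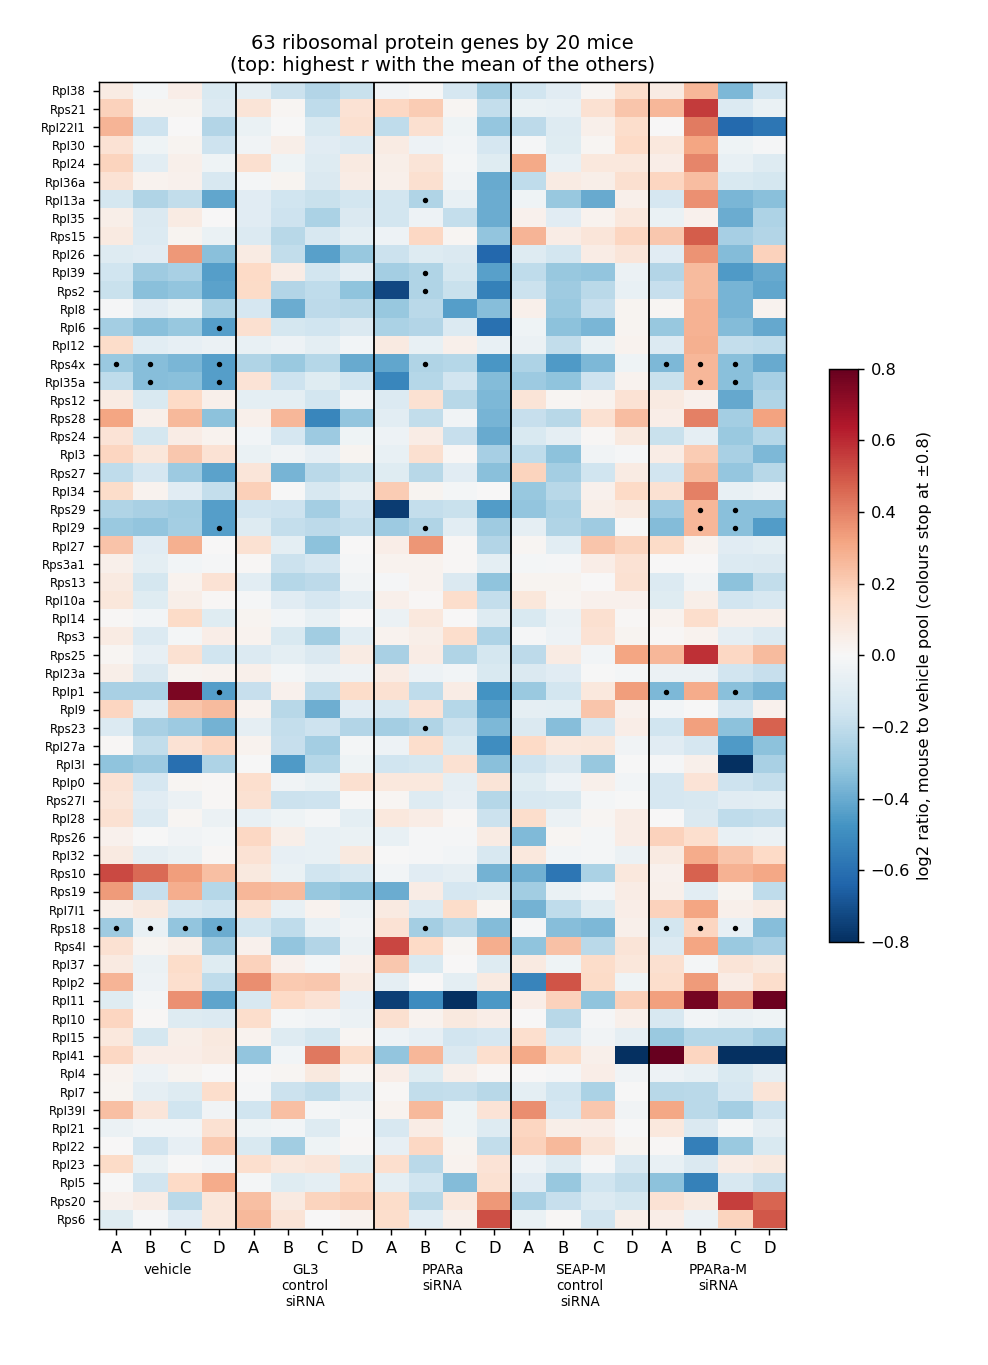
Log2 ratio of mouse to vehicle pool (colour) of the 63 members (rows, ordered by their r with the mean of the other members) in the 20 mice (columns, replicates A to D of each group). Black dots mark a repeated ratio (for Rps18, in 1 of its 2 probes), the upper rows turn red in PPARa-M siRNA replicate B and blue in PPARa siRNA replicate D, and the bottom rows, Rps20 and Rps6, do not follow them.

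The genes most like the mean of the members were Slirp (r = 0.89 over 20 mice), Mrpl52 (0.88), Ndufa11 (0.88), Mrps11 (0.87) and Mrpl42 (0.85), all of which code for mitochondrial proteins. With the 52 members free of the repeated ratio alone, r was 0.80 to 0.84 for these 5. The mean of 73 mitochondrial ribosomal protein genes had an r of 0.74 and a rho of 0.78 with the mean of the cytosolic members, and r was 0.69 without the mice farthest from the median. For 39 proteasome subunit genes r was 0.52 and rho 0.43, and r was 0.39 without those mice. For 64 ribosome biogenesis factors r was -0.10, rho -0.10 and r without those mice -0.11. For 27 initiation factors the values were 0.24, 0.24 and 0.32, and for 20 regulators of ribosomal protein synthesis -0.63, -0.59 and -0.51. For 16 other translation genes known for a 5′ terminal oligopyrimidine tract r was -0.26 and rho 0.00, and the sign turned without those mice (r = 0.26).

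Genes that serve the ribosome were counted by the same test for PPARa-M siRNA against SEAP-M control siRNA. Beside 2.54% of all genes, 1 of 64 ribosome biogenesis factors passed, or 1.56%, namely Bop1, a factor of large-subunit assembly, at 0.26 (SE 0.06, limma adjusted p = 0.0428), and the median was 0.076. Of 73 mitochondrial ribosomal protein genes 2 passed, or 2.74%: Mrpl34 rose and Mrps5 fell (0.39 and -0.28, limma adjusted p = 0.0417 and 0.0411), with a median of -0.018. By limma 0 passed of the 27 initiation factors, the 16 other translation genes with a tract, the 20 regulators such as Mtor and Myc, and the 39 proteasome subunits. At an unadjusted limma p under 0.05 were 4, 3, 2 and 9 of these genes, beside 2871 of all 15252 genes. Eef2, the elongation factor that moves the ribosome along the mRNA, came nearest, at -0.37 (SE 0.10, limma adjusted p = 0.0647). Fau and Rpl36al, ribosomal proteins whose symbols the rule does not take, had differences of 0.08 and -0.01. Against vehicle, 7 of the 64 biogenesis factors passed with PPARa-M siRNA, 6 higher and 1 lower, or 10.9% beside 7.28% of all genes, where 2 of the 63 ribosomal protein genes, or 3.17%, passed.

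For PPARa-M siRNA against SEAP-M control siRNA, where 2.54% of all genes passed, 4 of 26 interferon-stimulated genes rose, with a median of 0.652. In that comparison 3 of 30 cell cycle genes fell, with a median of -0.356. Marker lists of other cells had 1 gene past the test for endothelial cells (Flt1), for cholangiocytes (Cldn4) and for erythroid cells (Ermap, lower). By limma 0 of 14 passed for hepatocytes, 0 of 10 for macrophages, 0 of 14 for lymphocytes, 0 of 8 for neutrophils and 0 of 10 for stellate cells. In these lists 7, 0, 1, 0 and 1 genes had an unadjusted limma p under 0.05, beside 2871 of all 15252 genes. The mean of the 5 erythroid markers lay at -1.09 to -0.41 in the PPARa-M siRNA mice and at -0.33 to 0.51 in all others. The part of these cells in the values above was not tested.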

How the data were processed

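Values were the deposited log10 ratios of mouse to pool, which the authors had computed for 23493 probes per array by a normalization not given in the sources used here. The log10 scale was inferred from the limits of 2 and -2. No intensities or errors were used. Array medians lay between -0.0093 and 0.006, and no pair of arrays correlated below -0.3. Ratios were converted to log2, probes with a single symbol were averaged per gene, and limma 3.58.1 (R 4.3.3) was fitted to all 15252 genes and 20 arrays with 1 mean per group, adjusted within each comparison. The fit was tested on simulated data. Lists were described in Python 3.11.15 with pandas 2.3.3, numpy 2.4.6 and scipy 1.17.1, and figures drawn with matplotlib 3.10.9. Named were the 4 members with the smallest p per comparison, those with extreme SD or r, paralogs, and members with known roles. A repeated ratio was a 4-decimal value held by at least 30 probes and 5 times the mean of its neighbours, a rule chosen after the values were seen. The members, lists and tests were chosen with earlier results of these data known. Labels do not say whether replicate letters pair mice. Same-lettered mice of different groups deviated from their group means with correlations of -0.205 to 0.302 over 40 pairs (median -0.017). Over 120 pairs with different letters these were -0.373 to 0.368 (median 0.012), so the letters were not taken as pairs. Alternatives were other scalings, weights, probe summaries, samples in the fit, a replicate block and each array left out.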

Additional observations from a re-analysis of the deposited data

Results flagged for a closer look

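The effect of PPARa-M siRNA on Rpl11 relative to its control differed from that of PPARa siRNA by 1.19 on the log2 scale, by a test of the difference itself (limma, adjusted p = 0.0188).

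Examined were 45 groups of 4 mice, those of the mean over the members and of the 8 members that passed a comparison or varied most. Of these, 4 held a mouse far from the other 3 by Dixon's criterion. Chance gives about 1 in 20 in groups not chosen by their spread. Rpl41 and Rplp1 were taken for a wide spread, which such a mouse enlarges, so that rate does not apply to them. Rpl41 stood at -1.68 in SEAP-M control siRNA replicate D. Rplp1 stood at 0.75 in vehicle replicate C and at 0.30 in PPARa-M siRNA replicate B. Rplp1 held the repeated ratio of the array in vehicle replicate D and in PPARa-M siRNA replicates A and C. Vehicle replicates A and B, off that ratio, stood at -0.26 each, and PPARa-M siRNA replicate D, also off it, at -0.38. The part of the repeated ratio in these flags was not tested. Rpl32 stood at -0.13 in PPARa siRNA replicate D.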

How the results depend on the processing

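Differences of members named for a small p kept their direction in all alternatives run, where 638 values stayed on their side of the threshold, 54 lost a call and 12 gained one. With quantile normalization, with arrays scaled to 1 interquartile range and in a fit of the compared groups alone, 0 members passed for PPARa-M siRNA against SEAP-M control siRNA or against vehicle, and 1, Rpl11, against PPARa siRNA. Both scalings also left 0 for the difference between the Ppara siRNA effects. At an adjusted p under 0.01, 0 passed in each of these but the comparison of the Ppara siRNAs, with 1. Array quality weights gave 4, 4 and 3 members for PPARa-M siRNA against SEAP-M control siRNA, against vehicle and for the difference of effects. SEAP-M control siRNA against vehicle gave 1, Rps10, with weights or with 1 interquartile range. With each array left out in turn, counts were 0 to 3 for PPARa-M against SEAP-M control siRNA, 0 to 4 against vehicle, 2 to 4 against PPARa siRNA, 1 to 2 for the difference of effects, 2 to 4 for the F test, 0 to 1 for SEAP-M control siRNA against vehicle and 0 in the other comparisons. A replicate block gave 2, 3 and 3 members for PPARa-M siRNA against SEAP-M control siRNA, vehicle and PPARa siRNA, where Rpl5 was gained against vehicle and Rps10 lost against PPARa siRNA, and changed no other count. Member medians moved by less than the spread between mice in all alternatives. The counts were the same without the members of the repeated ratio, an alternative chosen after seeing the data. None of those members had passed, so leaving them out could not lower a count, and this alternative tests nothing. The causes were not tested.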
